A study of Mus musculus with 49 samples.

Results

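DNA transposon insertions are the single copies of cut-and-paste elements in the mouse genome, and 268 of them gave reads often enough to be followed in late 2-cell embryos depleted of the TATA-binding protein TBP. An insertion was included when its repeat annotation ended in the class DNA and reads on it came from 25% or more of the 18 embryos of the TBP experiment with at least 500000 counted reads, that is in 5 embryos or more. The annotation lists 167798 such copies, of which 6430 had any read in these embryos. The 268 insertions made up 0.658% of the 40760 insertions of all transposable element (TE) classes that met the same limit. They comprised 179 hAT-Charlie, 59 TcMar-Tigger and 12 hAT-Tip100 insertions, and a rest of 18, namely 11 hAT-Blackjack, 2 TcMar-Mariner, 2 TcMar and 2 hAT insertions and 1 with no superfamily.

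All embryos had the genotype F1(C57BL/6JxCBA/H) and were depleted, or mock depleted, by Trim-Away, in which the ubiquitin ligase Trim21 sends a protein bound by an injected antibody for degradation. Zygotes were injected with a mouse monoclonal antibody against TBP (TBP LOF, for loss of function, 9 embryos) or with mouse IgG (CONTROL, 10 embryos in the labels, of which 9 were used), both groups received mRNA for mCherry-Trim21 after 4 h, and every embryo was collected 48 h post-hCG. A second experiment used an antibody against FOXJ3 (16 embryos used) or rabbit IgG (13 embryos), in 2 library batches, with the same Trim21 mRNA, genotype and time. Trim-Away acts on the protein and leaves the gene in place, and the labels count 3 biological replicates over the TBP embryos but do not say which embryo belongs to which. Values are given per embryo as normalised reads, which are reads divided by a size factor from the ERCC spike-in RNA added to each lysate, and log2 fold changes are LOF over CONTROL.

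DNA transposons move as DNA. Their transposase cuts the element out at its terminal inverted repeats and pastes it elsewhere, whereas LINEs, SINEs and LTR elements spread through an RNA copy. In mammals the hAT superfamily (Charlie, Tip100, Blackjack) and the Tc1/mariner superfamily (Tigger, Mariner) make up most of them, and these are old, mutated copies that no longer move, many of them short deletion derivatives without a transposase gene. TBP is the subunit of TFIID that recognises the TATA box and takes part in initiation by RNA polymerases I, II and III. A read counted on such a copy may start inside it or belong to a transcript of a gene or another repeat around it, and the counts do not tell these cases apart. The authors counted reads from the 5' ends of transcripts, and how far this narrows the cases was not tested. Genome coordinates and sequences of single insertions were not used here, so copies are given by their names in the repeat annotation (subfamily, then the number of the copy).

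The 18 embryos had between 1148892 and 5425733 counted reads in the tables of genes and insertions. Tbp itself, at 77.03 ± 50.8 normalised reads in LOF (SD, n = 9) and 338 ± 149 in CONTROL (SD, n = 9), was lower by a log2 fold change of -2.14 (SE 0.37, edgeR's quasi-likelihood test). CONTROL embryo 9 and LOF embryo 11, the deepest libraries of their groups, also had the largest size factors of their groups, 2.95 and 4.14. Spike-ins took 4.29 ± 1.19% of the reads in LOF and 2.76 ± 0.372% in CONTROL embryos (SD, n = 9 each). Scaled to them, the 59208 genes and insertions tested had a median log2 fold change of -0.69, and scaled by TMM, which uses no spike-ins and takes most features as unchanged, they had a median of -0.06. Less RNA per embryo and lower transcription of each gene cannot be told apart in whole embryos. The 5 genes fixed as markers of the late 2-cell stage (Zscan4c, Zscan4d, Zfp352, Eif4e3 and Tdpoz4) had reads, together 192 to 366 CPM (reads scaled to the library total) in LOF and 82.2 to 232 in CONTROL. Scaled to the spike-ins, none of the 5 had an adjusted p under 0.05. Their log2 fold changes went both ways, from -1.24 (Zscan4c) to 0.52 (Zfp352). By TMM, Zfp352 (1.33, adjusted p by edgeR's quasi-likelihood test = 0.000449) and Eif4e3 (1.07, adjusted p = 0.000335) were higher, and the other genes of this list were not called. The TE families MERVL-int and MT2_Mm, fixed in the same list, were at -0.13 and 0.30. By TMM they were at 0.58 and 1.04, and only MT2_Mm was called (adjusted p = 0.00804). The 6 oocyte genes, whose RNA is inherited, summed to 1708 to 3145 CPM in LOF and 706 to 2234 in CONTROL. Zp3 among them was lower (log2 fold change -1.83, adjusted p by edgeR's quasi-likelihood test = 2.29e-05), and its groups did not overlap. By TMM, Zp3 was still called lower, and Zp2, Gdf9, Bmp15 and Oosp1 were called higher. Of 6 cumulus cell markers, Has2, Ptx3 and Fshr were at 0 in all 18 embryos, and the list summed to at most 4.45 CPM in LOF and at most 24.1 in CONTROL. Tnfaip6 had 18 reads in LOF and 79 in CONTROL, Foxl2 12 and 1, and Amh 0 and 4. Tnfaip6 was lower (log2 fold change -2.46, adjusted p by edgeR's quasi-likelihood test = 0.00866), and by TMM it was at -1.68 (adjusted p = 0.101). The part of these differences in the values below was not tested.

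DNA transposon insertions gave few reads. Per embryo, 677 to 1618 reads fell on DNA insertions of any kind in LOF (median 1136) and 1065 to 2456 in CONTROL (median 1368). This was 0.270 ± 0.0481% of the reads on insertions of all classes in LOF and 0.358 ± 0.0958% in CONTROL (SD, n = 9 each). The 268 insertions took 46.6 ± 9.54% of the DNA insertion reads in LOF and 40.4 ± 4.47% in CONTROL, so that most reads on this class were scattered over copies seen in fewer than 5 embryos. The mean per insertion ran from 0.278 to 53.1 reads per embryo with a median of 0.944, 139 of the 268 had a mean under 1 read, and 25 had a mean of 5 or more. Only 8 had a read in all 18 embryos. At the limit, the 83 insertions seen in exactly 5 embryos had a median of 11 reads in all, and the 130 seen in 4 embryos, which were left out, had a median of 7.

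A few copies held a large part of these reads. The 3 insertions with the most reads were URR1B_dup12392, RCHARR1_dup5928 (both hAT-Charlie) and Tigger12_dup141 (TcMar-Tigger), and they held 22.4% of the 10681 reads on the 268. The 10 highest held 36.0%. In the median insertion, the embryo with the most reads supplied 30.8% of them, and in 14 insertions a single embryo supplied more than 50%. Read numbers are not divided by the length of the copy and so rank reads, not levels per length.

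Among the annotated copies, 0.165% of hAT-Charlie, 0.165% of TcMar-Tigger, 0.121% of hAT-Tip100 and 0.136% of the remaining copies passed the limit on detection, against 0.195% of LINE, 1.29% of SINE and 1.75% of LTR copies. The 268 came from 75 of 275 subfamilies. MER5A, a short hAT-Charlie derivative, had the most, with 30 of 9237 copies (0.325%), followed by URR1B with 29 of 17452 (0.166%) and URR1A with 18 of 18148 (0.0992%), both rodent elements. In TcMar-Tigger these were MER2 with 12 of 10533 copies, Tigger7 with 11 of 5206 and Tigger17a with 5 of 929. In hAT-Tip100, Arthur1 and Arthur1B had 2 insertions each and each of the others 1. In the rest, MER81 had 4 of 528 copies (0.758%), and MER63B, MER63C and MMAR1 had 2 each.

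Summed over the 268 insertions, LOF embryos had fewer normalised reads. They ran from 225 to 705 in LOF (median 414, mean 457 ± 191 SD, n = 9) and from 429 to 1154 in CONTROL (median 740, mean 753 ± 183 SD, n = 9). All 9 LOF embryos were under the median CONTROL embryo, and 8 of 9 CONTROL embryos lay above the highest LOF embryo, the exception being CONTROL embryo 9. The difference of mean log2 sums was -0.80 for the 268. Without the limit on detection, it was -0.99 for all DNA insertions, -0.61 for insertions of all classes and -0.63 for genes. The DNA insertions that were not among the 268, had 562 ± 254 in LOF and 1151 ± 366 in CONTROL, a difference of -1.16. As a share of all counted reads, which does not use the spike-ins, the 268 took 0.0291 ± 0.00699% in LOF and 0.0328 ± 0.00596% in CONTROL, and the groups overlapped, 6 of 9 LOF embryos being under the median CONTROL embryo.

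Sums by superfamily were less even. hAT-Charlie insertions had 327 ± 135 normalised reads in LOF and 521 ± 103 in CONTROL (SD, n = 9 each), and 9 of 9 LOF embryos were under the median CONTROL embryo. TcMar-Tigger insertions had 79.3 ± 40.9 and 140 ± 50.2, with 8 of 9 below. hAT-Tip100 insertions ran from 1.46 to 23.0 in LOF (median 10.9) and from 6.45 to 115 in CONTROL (median 43.3), and 8 of 9 CONTROL embryos were above the highest LOF embryo. MER96B_dup285 alone had a mean of 0.663 in LOF and 32.4 in CONTROL, and the other 11 copies together had 11.5 ± 7.11 and 22.6 ± 13.4 (SD, n = 9 each). The remaining 18 insertions, mostly hAT-Blackjack, had 38.6 ± 15.2 in LOF and 37.9 ± 8.44 in CONTROL, and 4 of 9 LOF embryos were under the median CONTROL embryo. Differences between the superfamilies were not tested.

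**Figure D1:**
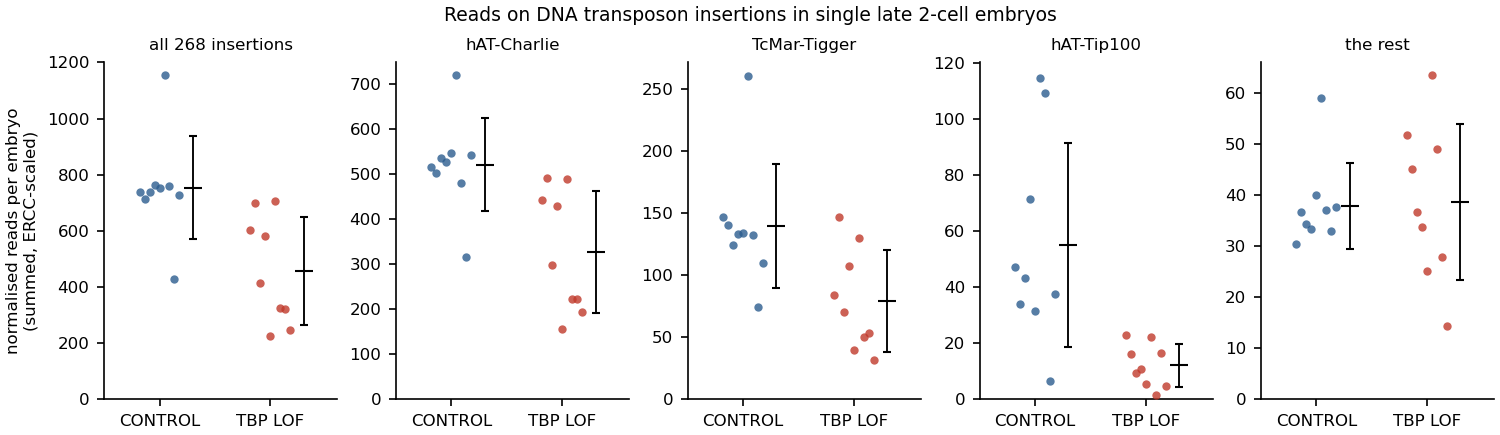
Normalised reads per embryo summed over the 268 DNA transposon insertions and over each superfamily group, for 9 CONTROL and 9 TBP LOF embryos; each point is an embryo and the bar is the mean ± SD. The LOF embryos sit below the CONTROL median in the panels of all insertions, hAT-Charlie and hAT-Tip100, and the means of the groups are alike for the remaining insertions (38.6 in LOF and 37.9 in CONTROL).

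Tested together with all genes and insertions, 26 of the 268 insertions were lower and 1 was higher in TBP LOF embryos (edgeR's quasi-likelihood test, adjusted p under 0.05). Of the 59208 features tested, 14.6% were lower and 0.76% higher, so the 9.70% of DNA insertions called lower is below the share of all features. Among insertions of other classes, 12.9% of SINE, 11.95% of LINE and 10.1% of LTR insertions were lower. The median log2 fold change of the 268 was -0.74, against -0.69 over all features, -0.21 for LTR, -0.79 for LINE and -1.09 for SINE insertions. Of the 268, 179 were fitted below 0. By TMM scaling 17 insertions were lower and 3 higher (6.76% and 2.64% of all features), with a median of -0.22 beside -0.06 over all features, and all 17 were among the 26. The 2 insertions called higher by TMM alone were MER5B_dup2128 and MER5A_dup2488, named after their values were seen. MER5B_dup2128 had no read in any CONTROL embryo. It met the limit on detection through LOF embryos alone and so was bound to differ.

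The share of calls differed with read numbers. Of insertions with a mean of 5 reads or more, 7 of 25 were lower (28.0%, against 14.5% of all insertions and 23.1% of all features at that level), and of those with a mean under 1, 9 of 139 (6.47%, against 9.39% and 8.82%). Among the 26, 11 had no read in any LOF embryo and 6 had 1 to 3, and their log2 fold changes lay between -5.89 and -2.31. An insertion with reads in CONTROL embryos only had to have them in at least 5 of 9 to be included, so these 11 were bound to differ. Every copy with reads in fewer than 5 LOF embryos, among them the 6 with 1 to 3 reads, likewise reached the limit only with CONTROL embryos. For 25 of the 26, all 9 LOF embryos were under the median CONTROL embryo, and for 1, URR1A_dup13013, the groups did not overlap (2.71% of all features tested did not). The 26 were selected on these same values, so the count of 25 largely follows from the selection and adds no support.

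**Figure D2:**
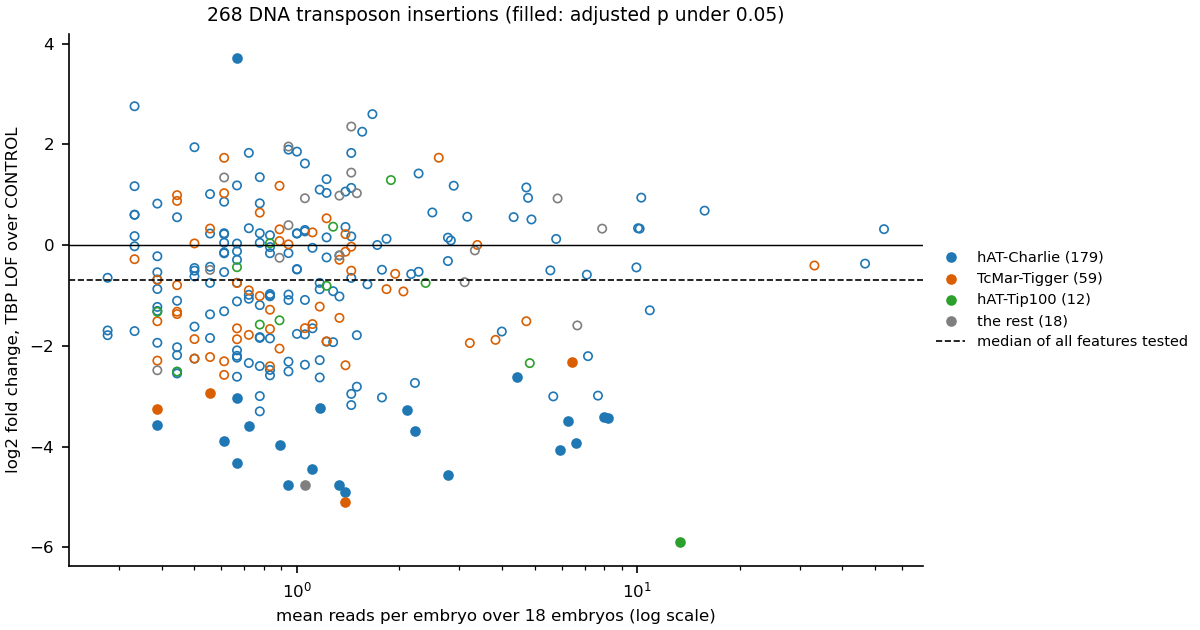
Log2 fold change (TBP LOF over CONTROL, ERCC scaling) of the 268 insertions against their mean reads per embryo on a log scale, coloured by superfamily group with the number of insertions in brackets; filled points have an adjusted p under 0.05 and the dashed line is the median of all 59208 features, -0.69. The 26 lower insertions all lie at -2.31 or below, and the 3 insertions with the most reads lie near 0.

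In hAT-Charlie, 20 of 179 insertions were lower and 1 higher (51 had an unadjusted p under 0.05, and by TMM scaling 13 were lower and 3 higher), and the median log2 fold change was -0.65. The 20 came from 13 subfamilies, with 3 each from URR1A, URR1B and MER5A.

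URR1A_dup13013 had no read in 6 of 9 LOF embryos and at most 1.84 normalised reads in the others. In CONTROL it ran from 4.41 to 28.6 with a median of 8.31. Its log2 fold change was -4.06 (adjusted p by edgeR's quasi-likelihood test = 0.0019, SE 0.84), and by TMM -2.99 (adjusted p = 0.0301). It was the only insertion of the 268 with every LOF embryo below every CONTROL embryo. With reads in 3 LOF embryos, it met the limit on detection only with CONTROL embryos, the group where it was high.

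MER58A_dup1839 had between 0 and 4.83 normalised reads in LOF (median 0) and between 3.39 and 36.6 in CONTROL (median 15.6). Only the lowest CONTROL embryo lay below the highest LOF embryo, and all 9 LOF embryos were below the CONTROL median. The log2 fold change was -3.92 (adjusted p by edgeR's quasi-likelihood test = 0.00385, SE 0.88), and by TMM -3.32 (adjusted p = 0.0152). This copy, with reads in 4 LOF embryos, likewise met the limit on detection only with CONTROL embryos.

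Charlie6_dup46 belongs to a subfamily of 151 annotated copies. It had 0 to 3.28 normalised reads in LOF (median 1.21) and 1.68 to 21.5 in CONTROL (median 17.1), where 7 embryos lay at 12 or above and the other two fell into the LOF range. The log2 fold change was -3.43 (adjusted p by edgeR's quasi-likelihood test = 0.00465, SE 0.79), and by TMM -2.74 (adjusted p = 0.0276).

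MER5A_dup5733 was the insertion called higher. It had 0 to 3.18 normalised reads in LOF (median 0.820), 12 reads in 5 embryos, and no read in any CONTROL embryo. It met the limit on detection through its 5 LOF embryos alone and so was bound to differ. Against a floor of 3 reads over the CONTROL group it was at least 2.71-fold higher, and its adjusted p was 0.0383 (edgeR's quasi-likelihood test). The call was lost in 11 of 18 fits with a single embryo left out, where the adjusted p ran up to 0.0643, without LOF embryo 7, and with CONTROL embryo 7 added, where it was 0.461.

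The hAT-Charlie copies with the highest normalised means did not pass the test. URR1B_dup12392 had 14.7 to 72.6 normalised reads in LOF (median 52.4) and 10.8 to 60.7 in CONTROL (median 35.4), a log2 fold change of 0.32 (adjusted p by edgeR's quasi-likelihood test = 0.671, SE 0.40). By TMM it was 1.05 (adjusted p = 0.105), and DESeq2 with its own size factors called it higher (1.16, adjusted p = 0.0241). RCHARR1_dup5928 had 4.92 to 72.6 in LOF (median 49.8) and 8.13 to 104 in CONTROL (median 54.2), with -0.37 (SE 0.48, adjusted p = 0.684 in the same test) and 0.39 by TMM. Both had reads in all 18 embryos, and their groups overlapped. RCHARR1_dup2575 came next by normalised mean, though not by reads, and CONTROL embryo 3, with 132 normalised reads, supplied 52.9% of its reads. It was at 0 in 5 of 9 CONTROL embryos, ran to 13.8 in LOF, and showed a log2 fold change of -2.99 (adjusted p by edgeR's quasi-likelihood test = 0.115, SE 1.27). With no filter on low counts it was called lower (-2.98, adjusted p = 0.0184), and so it was without LOF embryo 1 (-3.99, adjusted p = 0.0493).

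In TcMar-Tigger, 4 of 59 insertions were lower and 0 higher (13 had an unadjusted p under 0.05, and by TMM scaling 2 were lower and 0 higher), with a median log2 fold change of -1.01. Tigger elements are relatives of the pogo transposon, and the 4 came from 4 subfamilies, Tigger7, Tigger14a, Tigger13a and Tigger19a.

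Tigger7_dup3049 had no read in LOF and 0 to 16.8 normalised reads in CONTROL (median 1.43, 25 reads in 5 embryos). It was at least 12.3-fold lower in LOF, against 3 reads over the group (adjusted p by edgeR's quasi-likelihood test 0.0114, and 0.0346 by TMM), and DESeq2 with its own size factors did not call it (adjusted p = 0.0944). Tigger14a_dup161 also had no read in LOF, and 0 to 1.68 in CONTROL (median 1.35, 7 reads in 6 embryos), which made it at least 3.45-fold lower (adjusted p = 0.0137 in the same test, and 0.0422 by TMM). That call was lost with no filter on low counts (adjusted p = 0.0705) and in the 14 embryos whose numbers occur in both groups (adjusted p = 0.0683). Both copies met the limit on detection through CONTROL embryos alone and so were bound to differ. They rest on CONTROL embryos with few reads, and 40.0% of the reads of Tigger7_dup3049 came from CONTROL embryo 1.

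Tigger13a_dup550 had 1 read in LOF, in a single embryo, and 9 reads in 8 CONTROL embryos. It was included through its CONTROL embryos, the group where it was high. Its reads per summed size factor of the group were 13.3-fold lower in LOF, with an exact 95% counting interval from 1.84 to 583, which covers counting error only. Its adjusted p was 0.0193 (edgeR's quasi-likelihood test), and it was not called by TMM (adjusted p = 0.0906) or with no filter on low counts (adjusted p = 0.125).

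Tigger19a_dup613 was better covered. It had 0 to 10.9 normalised reads in LOF (median 1.22) and 6.65 to 20.03 in CONTROL (median 9.48), and 8 of 9 LOF embryos lay below the lowest CONTROL embryo. LOF embryo 6, at 10.9, was the exception, with the next LOF embryo at 2.30. The log2 fold change was -2.31 (adjusted p by edgeR's quasi-likelihood test = 0.0342, SE 0.74), and by TMM -1.68 (adjusted p = 0.124). The call was also lost with no filter on low counts (adjusted p = 0.125) and when LOF embryo 5, 7, 10 or 11 or CONTROL embryo 5 or 8 was left out, with adjusted p up to 0.0663 in those fits, without CONTROL embryo 8.

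The Tigger copy with the most reads, Tigger12_dup141, had 9.66 to 76.96 normalised reads in LOF (median 30.0) and 9.84 to 93.7 in CONTROL (median 43.8). Its log2 fold change was -0.41 (adjusted p by edgeR's quasi-likelihood test = 0.63, SE 0.47) and 0.25 by TMM, and the ranges overlapped. Tigger17_dup147 had 0 to 6.04 in LOF (median 1.59) and 0 to 13.3 in CONTROL (median 7.42), with -1.51 (SE 0.94, adjusted p = 0.313 in the same test), although 9 of 9 LOF embryos were under the median CONTROL embryo.

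In hAT-Tip100, 1 of 12 insertions was lower and 0 were higher (3 had an unadjusted p under 0.05, and TMM scaling gave the same counts of 1 and 0), with a median log2 fold change of -1.07. The lower one, MER96B_dup285, had the smallest adjusted p of the 268.

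MER96B_dup285 was at 0 in 7 of 9 LOF embryos, at 1.21 in another and at 4.76 in LOF embryo 8. In CONTROL it ran from 0 to 74.9 normalised reads with a median of 23.5, and 8 of 9 embryos had at least 18 each. The CONTROL embryo at 0 was embryo 9. Over all embryos it had 4 reads in LOF and 236 in CONTROL, a log2 fold change of -5.89 (adjusted p by edgeR's quasi-likelihood test = 0.000439, SE 1.03). By TMM it was -5.30 (adjusted p = 0.00193), and in the 18 fits with an embryo left out it stayed between -7.36 and -5.58. With reads in 2 LOF and 8 CONTROL embryos, the copy met the limit on detection only with CONTROL embryos, the group where it was high. CONTROL embryo 8 supplied 42.1% of its reads.

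MER45B_dup449 had 0 to 8.20 normalised reads in LOF (median 0.612) and 0 to 22.6 in CONTROL (median 7.22), with a log2 fold change of -2.34 (adjusted p by edgeR's quasi-likelihood test = 0.112, SE 0.99). Without LOF embryo 10, the highest of its group, its log2 fold change was -3.21 and the adjusted p was 0.0356. MamTip2_dup882 had 0 to 6.35 in LOF (median 1.21) and 0 to 9.65 in CONTROL (median 1.68), with -0.75 (SE 0.96, adjusted p = 0.674 in the same test).

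In the rest, 1 of 18 insertions was lower and 0 were higher (3 had an unadjusted p under 0.05, and TMM scaling gave the same counts of 1 and 0), and the median log2 fold change was 0.36. Of the 11 hAT-Blackjack insertions, 3 were fitted below 0 and their median was 0.98. This group is small, and none of its positive values passed the test.

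MER63B_dup183 (hAT-Blackjack) had no read in LOF and 0 to 10.4 normalised reads in CONTROL (median 1.70, 19 reads in 5 embryos). It met the limit on detection through those CONTROL embryos alone and so was bound to differ. It was at least 9.36-fold lower in LOF, against 3 reads over the group (adjusted p by edgeR's quasi-likelihood test 0.0134, and 0.038 by TMM). It was not called by DESeq2 with its own size factors (adjusted p = 0.143) or in the 14 embryos whose numbers occur in both groups (adjusted p = 0.0542). MER63B_dup182, the copy with the preceding number, had 20 reads in LOF and 6 in CONTROL, and a log2 fold change of 1.44 (adjusted p = 0.487 in the same test). It is named after its values were seen.

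The 3 copies with the highest normalised means in this group did not pass the test. MER81_dup466 had 2.41 to 20.3 normalised reads in LOF (median 5.74) and 0 to 13.9 in CONTROL (median 5.94), with 0.33 (adjusted p by edgeR's quasi-likelihood test = 0.814, SE 0.68). MER81_dup465 had 0 to 26.4 in LOF (median 3.69) and 0 to 12.8 in CONTROL (median 1.48), with 0.93 (SE 0.96, adjusted p = 0.591 in the same test). MER94_dup317 had 0 to 8.45 in LOF (median 2.904) and 3.37 to 21.5 in CONTROL (median 8.31), with -1.60 (SE 0.73, adjusted p = 0.145 in the same test), but DESeq2 with ERCC size factors called it lower (-1.64, adjusted p = 0.0328).

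**Figure D3:**
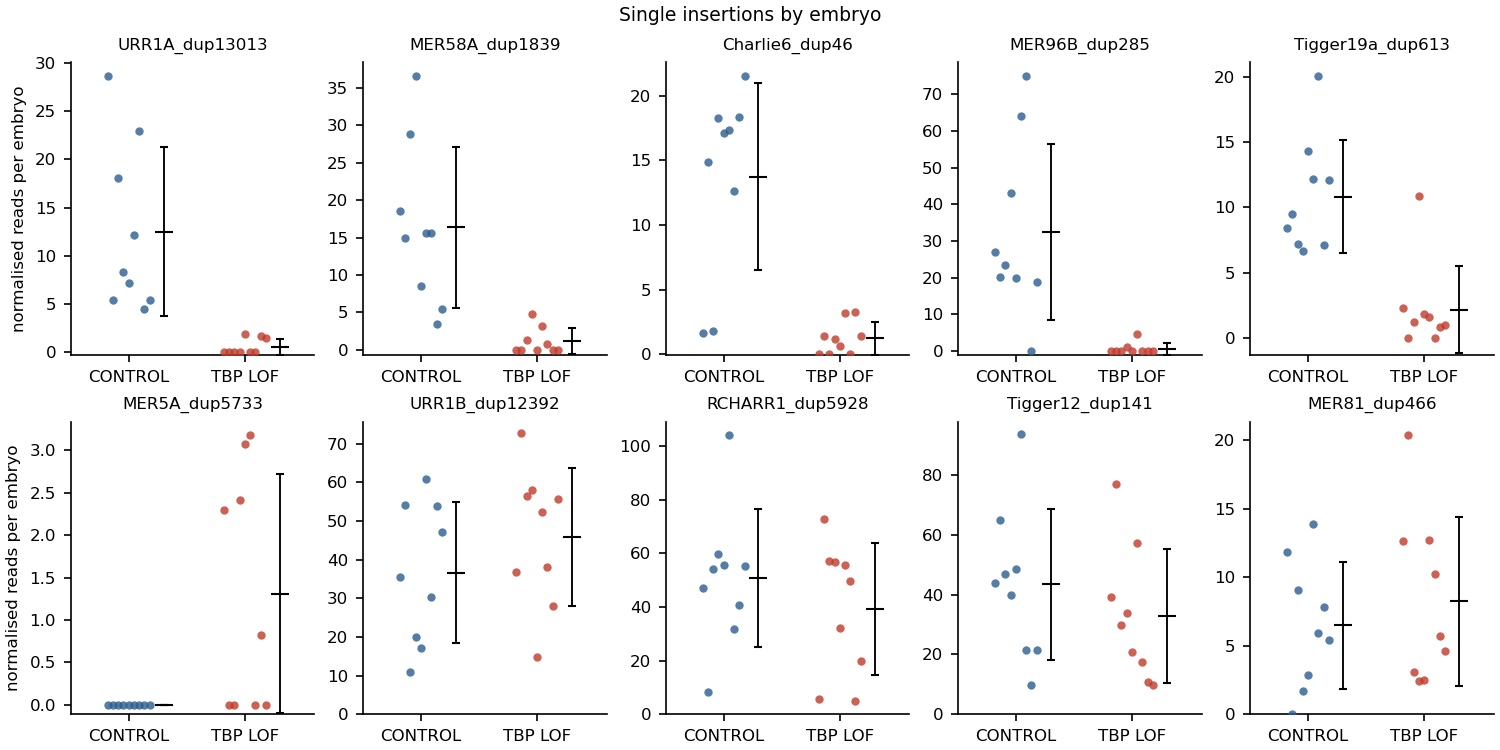
Normalised reads per embryo for 10 insertions in 9 CONTROL and 9 TBP LOF embryos; each point is an embryo, the bar is the mean ± SD, and each panel has its own linear axis. The first 5 panels hold copies called lower, MER5A_dup5733 is the copy called higher with at most 3.18 normalised reads, and the last 4 panels hold copies that were not called. The groups overlap in every panel except that of URR1A_dup13013.

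Some of these insertions are not independent of each other. In 22 pairs, both copies belonged to the same subfamily and their numbers lay at most 3 apart, and 28 of the 268 insertions were in such a pair. MER5A_dup4260 and MER5A_dup4261 had the same count in 16 of 18 embryos and differed by at most 1 read in the others, and URR1B_dup2693 and URR1B_dup2694 had identical counts throughout, so each pair is a single measurement. The 5 copies URR1B_dup12388 to URR1B_dup12392 were all included and held 12.5% of the reads on the 268, yet their fold changes ran from -1.79 to 1.101 and none passed the test. The 2 fitted values had the same sign in 13 of the 22 pairs.

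The table of TE families, counted apart from the table of insertions, gave the totals per family. Of 297 DNA families, 145 met the limit on detection, and 27 were lower and 0 higher in TBP LOF embryos (45 had an unadjusted p under 0.05, edgeR's quasi-likelihood test). Of all 19357 genes and TE families, 29.7% were lower and 1.34% higher, and 28.7% of the 909 TE families were lower, against 18.6% of DNA families. The median log2 fold change of the DNA families was -1.005, beside -0.90 over all TE families and -0.72 over all features. By TMM scaling 2 were lower and 2 higher (12.7% and 12.8% of all features), so that 25 of the 27 lower calls were lost. The 2 lower ones were MER96B and MER3, and the higher ones were MER81 and Arthur1A (the latter named after its values were seen).

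By group, 16 of 57 hAT-Charlie, 6 of 34 TcMar-Tigger, 5 of 25 hAT-Tip100 and 0 of 29 other families were lower (5 of these 29 had an unadjusted p under 0.05, and TMM called 1 of them higher and 0 lower). Of the 27 lower families, 14 included an insertion that was itself called lower and 6 included none of the 268. The copy with the most reads held from 5.06% to 96.0% of the insertion reads of a lower family (median 26.9%). It held over 50% in 4 of them, MER96B, Tigger19a, MER45B and Charlie6, of which Charlie6 is named after its values were seen.

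MER96B (hAT-Tip100) had most of its reads on the copy among the 268. The family had 0 to 4.76 normalised reads in LOF (median 0) and 0 to 74.9 in CONTROL (median 24.4), a log2 fold change of -5.91 (adjusted p by edgeR's quasi-likelihood test = 1.54e-08, SE 0.75). MER96B_dup285 held 96.0% of its insertion reads. MER45B, of the same group, had 1.21 to 10.7 in LOF (median 3.45) and 2.04 to 27.8 in CONTROL (median 10.8), with -1.66 (SE 0.57, adjusted p = 0.0191 in the same test) and -0.64 by TMM (adjusted p = 0.382).

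In hAT-Charlie, MER3 had 1.21 to 13.1 normalised reads in LOF (median 9.52) and 6.11 to 62.8 in CONTROL (median 38.2), with a log2 fold change of -2.24 (adjusted p by edgeR's quasi-likelihood test = 0.000191, SE 0.48) and -1.38 by TMM (adjusted p = 0.0158). RMER30, a rodent element, had 7.96 to 28.6 in LOF (median 14.9) and 12.9 to 62.5 in CONTROL (median 53.9), with -1.51 (SE 0.37, adjusted p = 0.00113 in the same test) and -0.62 by TMM (adjusted p = 0.132). In both, all 9 LOF embryos were under the median CONTROL embryo.

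URR1B and RCHARR1 were the hAT-Charlie families with the highest normalised means. URR1B had 49.8 to 227 normalised reads in LOF (median 157) and 135 to 415 in CONTROL (median 221), with a log2 fold change of -0.71 (adjusted p by edgeR's quasi-likelihood test = 0.0582, SE 0.29), and RCHARR1 had 25.8 to 145 in LOF (median 95.2) and 71.2 to 309 in CONTROL (median 153), with -0.85 (SE 0.32, adjusted p = 0.0328 in the same test). In URR1B, the leading copy URR1B_dup12392 had 45.8 ± 17.8 in LOF and 36.6 ± 18.2 in CONTROL, and all other copies together 100 ± 41.1 and 201 ± 69.1 (SD, n = 9 each). In RCHARR1, RCHARR1_dup5928 had 39.3 ± 24.6 and 50.8 ± 25.7, and the others 50.6 ± 27.8 and 108 ± 64.7. The difference between a leading copy and the other copies was seen in these values and was not tested. By TMM, URR1B was at 0.13 and RCHARR1 at -0.07, and neither was called. DESeq2 with ERCC size factors and edgeR's filterByExpr called URR1B lower (adjusted p = 0.0289 and 0.0342), and RCHARR1 was no longer called with all 19 embryos (adjusted p = 0.0508).

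In TcMar-Tigger, Tigger7 had 5.55 to 52.4 normalised reads in LOF (median 26.6) and 14.6 to 110 in CONTROL (median 66.4), with a log2 fold change of -1.29 (adjusted p by edgeR's quasi-likelihood test = 0.0049, SE 0.37). Its reads were spread over 243 copies, and the highest held 5.06% of them. Tigger19a, with 71.6% of its reads on Tigger19a_dup613, had 0.732 to 12.7 in LOF (median 2.30) and 7.12 to 24.5 in CONTROL (median 16.6), with -1.92 (SE 0.56, adjusted p = 0.00575 in the same test). MER2, a deletion derivative of Tigger, had 11.1 to 74.7 in LOF (median 52.7) and 27.5 to 167 in CONTROL (median 85.9), with -1.02 (SE 0.34, adjusted p = 0.0163 in the same test). All 9 LOF embryos were under the median CONTROL embryo in each of these families, and none was called by TMM, where Tigger7 was at -0.52, Tigger19a at -1.08 and MER2 at -0.17.

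In the rest, MER53 (hAT) had 0.966 to 13.1 normalised reads in LOF (median 3.45) and 4.06 to 23.3 in CONTROL (median 10.5), with a log2 fold change of -1.005 (adjusted p by edgeR's quasi-likelihood test = 0.19, SE 0.57). MER81 (hAT-Blackjack) had 8.93 to 37.4 in LOF (median 13.5) and 3.33 to 22.6 in CONTROL (median 16.2), with 0.35 (SE 0.43, adjusted p = 0.597 in the same test). MER81 was called higher by TMM (1.28, adjusted p = 0.00994).

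**Figure D4:**
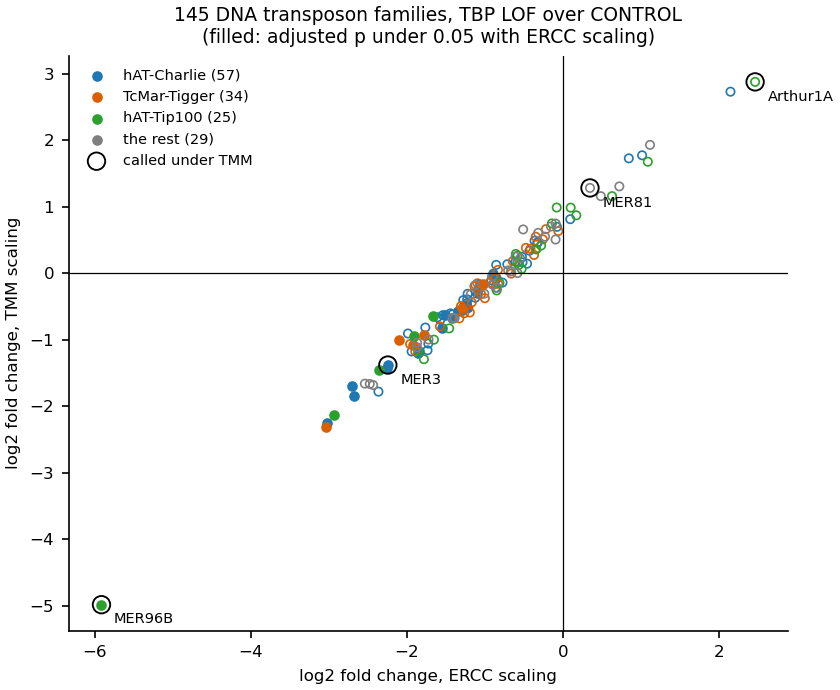
Log2 fold change of the 145 DNA transposon families, TBP LOF over CONTROL, with ERCC scaling on the x axis and TMM scaling on the y axis, coloured by superfamily group with the number of families in brackets; filled points were called with ERCC scaling (27) and ringed points with TMM (4). The points lie along a line shifted upwards, and MER96B lies apart at -5.91 and -4.98.

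In the FOXJ3 experiment, for which only family counts were used, 136 DNA families were tested with library batch as a covariate and 0 were lower or higher (edgeR's quasi-likelihood test and DESeq2; 6 had an unadjusted p under 0.05 in edgeR). Of all 19518 features 0.0102% were called, and the median log2 fold change of the DNA families was -0.02. The smallest p belonged to Tigger20a, with 0.882 ± 1.22 CPM in LOF (SD, n = 16) and 0.0827 ± 0.223 in CONTROL (SD, n = 13), and 31 reads in all. Its log2 fold change was 2.93 (adjusted p by edgeR's quasi-likelihood test = 0.421, SE 0.81), 3.96 in batch 1 and 2.14 in batch 2. MER91B (hAT-Tip100), next in order, had 0.645 ± 0.634 in LOF and 0.102 ± 0.202 in CONTROL, with 2.03 (SE 0.76, adjusted p = 0.783 in the same test). The experiments share no embryos and were scaled differently, and their difference was not tested.

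Several mouse genes descend from DNA transposases that the host has taken over, and 27 of them were listed by the superfamily they come from. Rows were found for 26, of which 21 met the limit on detection, and 7 were lower and 1 higher in TBP LOF embryos, against 29.8% and 1.40% of all genes tested. Their median log2 fold change was -1.16, beside -0.70 over all genes tested. By TMM scaling 0 were lower and 3 higher (Zbed3, Zbed4 and Pgbd5, the last 2 named after their values were seen), with a median of -0.31, so that all 7 calls of lower genes were lost. Tigd4, Jrkl, Rag1 and Rag2 had no read in these embryos.

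Of the genes related to pogo and Tigger, 2 of 6 were lower. Pogz (chromosome 3, 94837567 to 94882326, GRCm38), a zinc finger protein that binds heterochromatin protein 1, had 2.46 to 22.0 normalised reads in LOF (median 12.7) and 13.5 to 48.2 in CONTROL (median 32.5). Its log2 fold change was -1.30 (adjusted p by edgeR's quasi-likelihood test = 0.0112, SE 0.41), and 9 of 9 LOF embryos were under the median CONTROL embryo. The call was lost by TMM (-0.43, adjusted p = 0.379) and in the 14 embryos whose numbers occur in both groups (-1.03, adjusted p = 0.0543). Jrk, named after its values were seen, had 0 to 3.69 in LOF (median 0) and 1.68 to 11.9 in CONTROL (median 4.28), with -2.44 (SE 0.84, adjusted p = 0.0207 in the same test). It had 9 reads in 3 LOF embryos and 50 in 9 CONTROL embryos, so it met the limit on detection only with CONTROL embryos, where it was high. By TMM Jrk was at -1.47 (adjusted p = 0.195).

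Of the 5 hAT-derived genes, 1 was lower and 1 higher. Zbed5 (chromosome 5, 129895723 to 129903623) had 3.38 to 49.4 normalised reads in LOF (median 15.9) and 30.3 to 146 in CONTROL (median 46.6), with a log2 fold change of -1.65 (adjusted p by edgeR's quasi-likelihood test = 0.000775, SE 0.40). Zbed3 (chromosome 13, 95323612 to 95337841), known as an Axin-binding protein and as part of a maternal protein complex of the egg, had by far the most reads of the list. It ran from 1292 to 6415 in LOF (median 2293) and from 1179 to 2581 in CONTROL (median 1713), with 0.87 (SE 0.33, adjusted p = 0.0354 in the same test) and 1.62 by TMM. The groups overlapped, and 4 of 9 LOF embryos were under the median CONTROL embryo.

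Naif1 (chromosome 2, 32450457 to 32456953), the partner that carries the Harbinger-derived Harbi1 into the nucleus, had 14.004 to 100.04 normalised reads in LOF (median 37.5) and 66.8 to 168 in CONTROL (median 96.2). Its log2 fold change was -1.42 (adjusted p by edgeR's quasi-likelihood test = 0.00072, SE 0.34), and Harbi1 itself had -1.16 (adjusted p = 0.0516 in the same test).

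Of the 7 THAP genes, whose DNA-binding domain is that of the P element transposase, 3 were lower. Thap11 (chromosome 8, 105855132 to 105856950), a transcription factor needed by early embryos and also called Ronin, had 44.7 to 359 normalised reads in LOF (median 152) and 238 to 696 in CONTROL (median 361), with a log2 fold change of -1.15 (adjusted p by edgeR's quasi-likelihood test = 0.00443, SE 0.33). Thap1 (chromosome 8, 26158141 to 26164151) had 2.41 to 31.8 in LOF (median 19.3) and 16.6 to 72.9 in CONTROL (median 45.5), with -1.46 (SE 0.40, adjusted p = 0.0034 in the same test). Thap4 (chromosome 1, 93701935 to 93754864) had 4.36 to 24.1 in LOF (median 10.7) and 10.8 to 44.9 in CONTROL (median 33.7), with -1.28 (SE 0.40, adjusted p = 0.0111 in the same test). For each of the 3, all 9 LOF embryos were under the median CONTROL embryo.

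**Figure D5:**
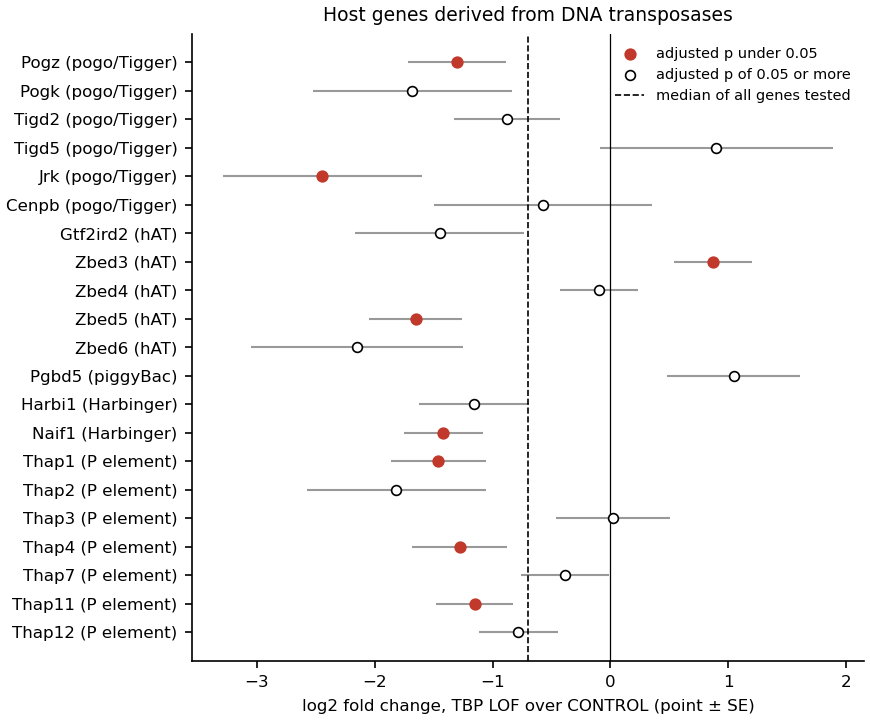
Log2 fold change ± SE (TBP LOF over CONTROL, ERCC scaling) of the 21 tested genes that derive from DNA transposases, with the superfamily of origin in brackets; filled points have an adjusted p under 0.05, and the dashed line is the median of all genes tested, -0.70. Zbed3 is the filled point above 0, and 7 filled points lie between -2.44 and -1.15.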

How the data were processed

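Single late 2-cell embryos were sequenced with Smart-seq+5', and the authors deposited estimated counts per gene and TE family and, for the TBP experiment, per gene and insertion. The counts were rounded to whole counts for DESeq2 only. The submitters' processing notes name STAR 2.7.11a and GRCm38. For multi-mapping reads and strand, the settings were not given in the sources used here. The labels, which put 10 embryos in CONTROL and 9 in TBP LOF, set the groups. CONTROL embryo 7, with 464300 counted reads, fell below 500000 and was left out. Features with a read in at least 25% of embryos were tested with edgeR 4.0.16 (quasi-likelihood test, two-sided, Benjamini-Hochberg over all features, threshold 0.05), scaled to ERCC size factors for TBP and by TMM with batch as covariate for FOXJ3. DESeq2 1.42.0, TMM, other filters, a replicate block and leaving out each embryo were alternatives. Methods were tested on simulated data, where most of the smaller changes were missed. A feature that was not called is thus not shown to be unchanged. The p-values measure the spread between embryos, and intervals and floors cover counting error only.

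Named in each group were the 3 insertions with the smallest adjusted p per direction among those called and the 3 with the highest mean, the 3 subfamilies with most insertions, the 2 families per direction and by mean, up to 6 called host genes and the 2 with the highest mean, and, for FOXJ3, the 2 families with the smallest p where none was called. The insertions and lists were chosen with earlier results of these data known. Neither positions nor sequences of insertions were used here.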

Additional observations from a re-analysis of the deposited data

Results flagged for a closer look

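In groups of 9 embryos, the highest or lowest value was set against the others by Dixon's criterion. Of 88 groups of values examined 11 had such an embryo. About 1 in 20 would be flagged for independent, normally distributed values. These are low counts and several groups share reads, so no excess can be read from the 11. CONTROL embryo 6 was high in 3 of them, with 1154 normalised reads over the 268 insertions, 260 over the TcMar-Tigger insertions and 59.0 over the rest. LOF embryo 10 was high for MER45B_dup449, with 8.20, and for the MER45B family, with 10.7. LOF embryo 8 was high for MER96B_dup285 and for the MER96B family, with 4.76 in both, which are nearly the same reads. The others were RCHARR1_dup2575 in CONTROL embryo 3 (132), MER81_dup465 in LOF embryo 9 (26.4), Tigger19a_dup613 in LOF embryo 6 (10.9) and Tigger13a_dup550 in LOF embryo 7 (0.614, a single read).

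The annotation holds a further class, written DNA?, for elements whose assignment is uncertain, which the 268 insertions do not include. Of its 26 families 2 were tested. Eulor6D was higher in TBP LOF embryos, with 0 to 12.7 normalised reads in LOF (median 1.22) and 0 to 4.06 in CONTROL (median 0), a log2 fold change of 2.54 (adjusted p by edgeR's quasi-likelihood test = 0.0497, SE 1.02) and 2.97 by TMM (adjusted p = 0.0222). It had 30 reads in 8 LOF embryos and 4 in 2 CONTROL embryos, so it met the limit on detection through LOF embryos, the group where it was high. The authors had also named Eulor6D as the only affected TE family that was not lower. MER124 had -1.37 (SE 1.12, adjusted p = 0.392 in the same test).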

How the results depend on the processing

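Against 26 insertions called lower, the counts were 17 by TMM scaling, 12 by DESeq2 with its own size factors, 8 with a mean of at least 5 reads (25 tested), and 0 by edgeR's filterByExpr (3 tested). DESeq2 with ERCC size factors, no filter, and all 19 embryos gave 27, 19 and 30, and leaving out each embryo gave 21 to 34. Of all features, 14.6% were lower in the main fit and 6.76% by TMM. For the other fits, those with a replicate block included, no such share is given. Their counts are therefore not read as particular to the DNA insertions. The 1 called higher became 3 by TMM and 4 by DESeq2 with its own size factors, and 0 by DESeq2 with ERCC size factors, filterByExpr, the mean of at least 5 reads and all 19 embryos, with 0 to 2 when an embryo was left out. Of families, 27 were lower, 2 by TMM and 13 by filterByExpr (19 tested), and 0 were higher, 2 by TMM. Of host genes, 7 were lower, 0 by TMM and 11 by DESeq2, and 1 was higher, 3 by TMM. Without a replicate block, the values that turned in sign were RCHARR1_dup5928 (0.39 by TMM, 0.42 by DESeq2 with its own size factors), Tigger12_dup141 (0.25 by both) and the URR1B family (0.13 by TMM). The median of the 268 moved to -0.22 by TMM and -0.17 by DESeq2 with its own size factors. The causes were not tested.

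The embryo numbers of the groups do not pair embryos: same-numbered embryos correlated at -0.055 to 0.133 and none best with its own number. With the number as a replicate block, in 14 embryos, 7 insertions were lower and 0 higher, and RCHARR1_dup2575 turned in sign, to 0.64. Of the named results recomputed, those no longer called with the block, with their adjusted p, were MER5A_dup5733 (0.355), MER63B_dup183 (0.138), Tigger13a_dup550 (0.202), Tigger14a_dup161 (0.353), Tigger7_dup3049 (0.07196), the families MER2 (0.163), MER45B (0.146), RCHARR1 (0.354) and Tigger7 (0.0731), and Pogz (0.0907). The same embryos without a block term, chosen after seeing the data, gave 10 and 0, and there MER5A_dup5733 (0.0833), Tigger19a_dup613 (0.103) and the families MER2 (0.119), MER45B (0.0767), RCHARR1 (0.299) and Tigger7 (0.0583) were not called, nor were Tigger14a_dup161, MER63B_dup183 and Pogz. Families gave 8 lower with and 8 without the block. With a median of 0.944 reads per embryo, depth limits what single insertions can show.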
